A study of Caenorhabditis elegans with 12 samples.

Results

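The vitellogenin genes vit-1 to vit-6 of Caenorhabditis elegans encode yolk proteins. They were chosen by gene name, and all 6 were found among the 46739 genes of the count table and among the 15764 genes that passed the filter on low counts. RNA had been sequenced from whole worms, 100 per sample, collected 24 h after the L4 stage (day 2 in the labels), in 4 genotypes with 3 biological replicates each. The groups were N2, the wild-type laboratory strain, daf-2, a mutant of the insulin/IGF-1 receptor gene that regulates lifespan, spr-4;spr-3, a double mutant of 2 zinc-finger repressor genes, and spr-4;spr-3;daf-2, called the triple-label libraries below. The labels name no alleles and no treatment, and no change is shared by all groups.

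Yolk proteins are made in the intestine of the adult hermaphrodite, secreted into the body cavity and taken up by growing oocytes through the receptor RME-2, where they feed the embryo. vit-1 and vit-2 encode one class of heavy yolk polypeptide, vit-3, vit-4 and vit-5 a second class, and vit-6 a precursor that is cut into a pair of smaller chains. GATA factors and homeodomain proteins of the intestine switch the genes on at adulthood, and DAF-16, the transcription factor that is active when insulin signalling is low, is known to restrain them.

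Library totals ran from 30837773 to 48894725 counts, so even the lowest count of a vitellogenin gene, 19448 reads of vit-1, carried a counting error of 0.717%, below the spread between replicates. Among the genes named in the genotypes, spr-3 had 15.2 to 17.7 CPM (counts scaled to a common library size by TMM) in the triple-label libraries, 16.1 to 18.2 in N2 and 8.70 to 10.1 in spr-4;spr-3. spr-4 had 58.0 to 64.3 CPM in the triple-label libraries and 62.6 to 65.4 in spr-4;spr-3, below its 75.0 to 78.1 in N2 and 68.6 to 74.3 in daf-2. So in the libraries labelled as the triple mutant spr-4 was at the level of the double mutant and spr-3 was not. Scaling by library totals in place of TMM lowered the share of calls that were higher from 53.0% to 35.0% for spr-4;spr-3 against N2. It raised that share from 52.3% to 68.1% for the triple-label libraries against spr-4;spr-3 and from 49.2% to 77.5% for the interaction, and it moved the median of all genes in the interaction by 0.12 on the log2 scale.

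All members but vit-6 lie on chromosome X of the build WBcel235: vit-1 (WBGene00006925) at 7727889 to 7733168 and vit-2 (WBGene00006926) at 5101042 to 5106169 on the plus strand, vit-3 (WBGene00006927) at 3567355 to 3572549 and vit-4 (WBGene00006928) at 3558769 to 3563965 on the minus strand, and vit-5 (WBGene00006929) at 3403471 to 3408603 on the plus strand. vit-6 (WBGene00006930) lies on chromosome IV, at 8261157 to 8266459 on the plus strand. vit-3 and vit-4 are neighbours, with 3389 bp and 0 annotated genes between them, and vit-3, vit-4 and vit-5 share a coding length of 4809 bp. The exons of the members add up to 4870 to 5088 bp. Close copies can exchange reads in counting, and how reads that match several places were treated is not given in the sources used here. Read sharing between members was not measured. The split of counts within each class of heavy chain is therefore uncertain, that between vit-3 and vit-4 in particular. 3 annotated genes overlap member exons on the opposite strand, and each had few reads: C42D8.9 over vit-2 had 2 to 11 per library, F59D8.3 over vit-4 had 0 to 4 and T27A10.8 over vit-3 had 0 to 1.

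vit-2, vit-6 and vit-5 led the counts of these animals. Counts grow with transcript length, and no rank per exon length was taken. By count, vit-2 ranked first, then vit-6, then vit-5, among all genes in each of the 12 libraries. The ranks of the other members varied with genotype: vit-1 ranked 8 to 11 in N2 and 211 to 278 in the triple-label libraries, vit-3 ranked 9 to 65 over all libraries, and vit-4 34 to 175. Per exon length, vit-2 was at 7160 to 8374 TPM (a level per exon length and library) in N2, vit-6 at 6235 to 7179, vit-5 at 4089 to 4724, vit-1 at 692 to 777, vit-3 at 709 to 733 and vit-4 at 469 to 500. In N2 the ranges of vit-2 and vit-6 overlapped, as did those of vit-1 and vit-3. The lower end of this order changed with genotype. In daf-2, vit-3 led with 623 to 748 TPM, and vit-1 at 306 to 390 and vit-4 at 348 to 446 overlapped. In the triple-label libraries vit-3 at 356 to 445, vit-4 at 174 to 212 and vit-1 at 113 to 148 TPM were separate.

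The 6 genes together took 7.74%, 8.30% and 8.74% of all counts in N2 replicates 1, 2 and 3. Their share was 8.73%, 9.51% and 9.39% in daf-2, 10.6%, 10.3% and 10.4% in spr-4;spr-3, and 9.05%, 9.24% and 8.55% in the triple-label libraries. The spr-4;spr-3 libraries lay above all others, the lowest daf-2 library was just below the highest N2 library, and the triple-label libraries overlapped both of these. The means were 8.26% ± 0.500 in N2, 9.21% ± 0.418 in daf-2, 10.4% ± 0.148 in spr-4;spr-3 and 8.94% ± 0.354 in the triple-label libraries (SD, n = 3). No test is given for this sum, since the members were chosen with earlier results of these data known.

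**Figure D1:**
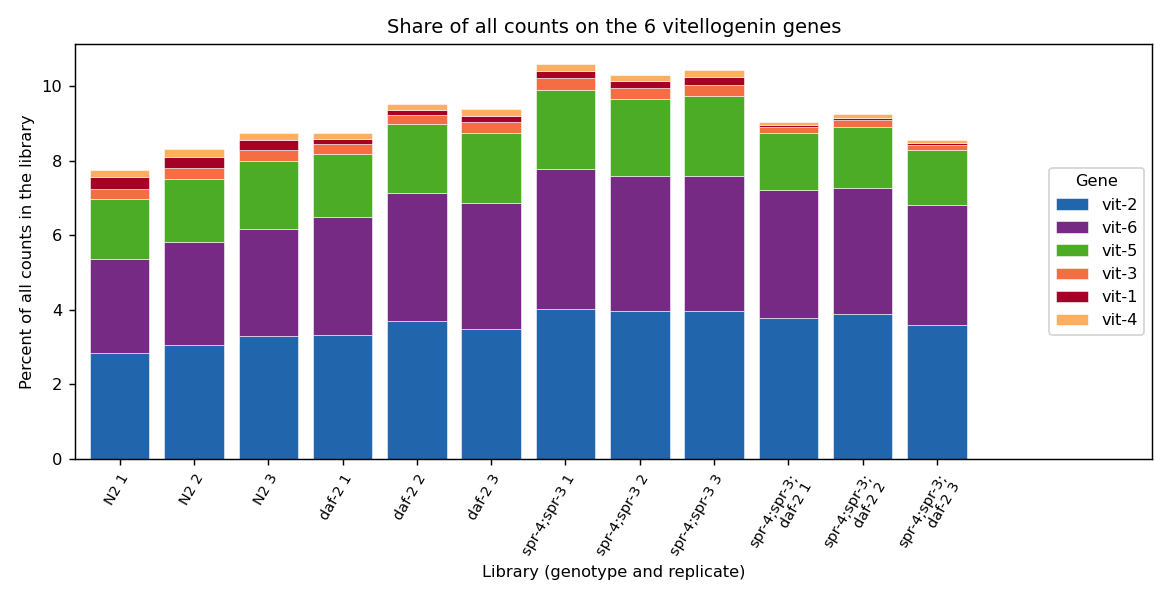
Percent of all counts in each library (y axis) that fell on each vitellogenin gene (stacked colours), by genotype and replicate (x axis). vit-2, vit-6 and vit-5 make up nearly all of each bar; the bars run from 7.74% in N2 replicate 1 to 10.6% in spr-4;spr-3 replicate 1.

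Within the first class of heavy chain, the less abundant vit-1 was lower and the most abundant vit-2 higher than in N2 in each mutant group. Against spr-4;spr-3, the triple-label libraries had lower means of both. vit-1 had 3074, 2965 and 2738 CPM in the N2 replicates, then 1355, 1349 and 1597 in daf-2, 2153, 1942 and 2162 in spr-4;spr-3, and 584, 626 and 475 in the triple-label libraries. The 4 genotypes did not overlap for vit-1, in the order N2, spr-4;spr-3, daf-2, triple-label, and the highest library stood 6.47 times above the lowest. vit-2 had 27485, 29477 and 32129 CPM in N2, then 33857, 37608 and 34319 in daf-2, 41784, 41066 and 40791 in spr-4;spr-3, and 37310, 38474 and 35210 in the triple-label libraries. For vit-2, N2 was below every mutant library, spr-4;spr-3 above every other, and daf-2 and the triple-label libraries overlapped.

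In the second class, vit-3 and vit-4 were low in the triple-label libraries, and the more abundant vit-5 was high in spr-4;spr-3. vit-3 had 2717, 2774 and 2713 CPM in N2, then 2753, 2553 and 2964 in daf-2, 3151, 2931 and 3123 in spr-4;spr-3, and 1716, 1820 and 1448 in the triple-label libraries. vit-4 had 1800, 1897 and 1812 CPM in N2, then 1496, 1465 and 1769 in daf-2, 1964, 1791 and 1958 in spr-4;spr-3, and 835, 871 and 709 in the triple-label libraries. Both genes had their triple-label libraries below all others; for vit-3 the daf-2 range held that of N2, and for vit-4 daf-2 lay below N2. vit-5 had 15492, 16374 and 17890 CPM in N2, then 17386, 18840 and 18517 in daf-2, 22206, 21548 and 22065 in spr-4;spr-3, and 15028, 16232 and 14425 in the triple-label libraries. Its spr-4;spr-3 libraries were above all others, and N2 overlapped both daf-2 and the triple-label libraries.

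vit-6, the gene of the cleaved precursor, followed vit-2. It had 24564, 26894 and 28270 CPM in N2, then 32346, 35038 and 33312 in daf-2, 38987, 37400 and 37481 in spr-4;spr-3, and 33719, 33823 and 31387 in the triple-label libraries. N2 was lowest and spr-4;spr-3 highest with no overlap, while daf-2 and the triple-label libraries overlapped. Replicates varied by 0.07 to 0.14 on the log2 scale within genotypes (pooled SD of log2 CPM), with vit-6 the steadiest and vit-1 the least steady; the median over all genes tested was 0.12.

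**Figure D2:**
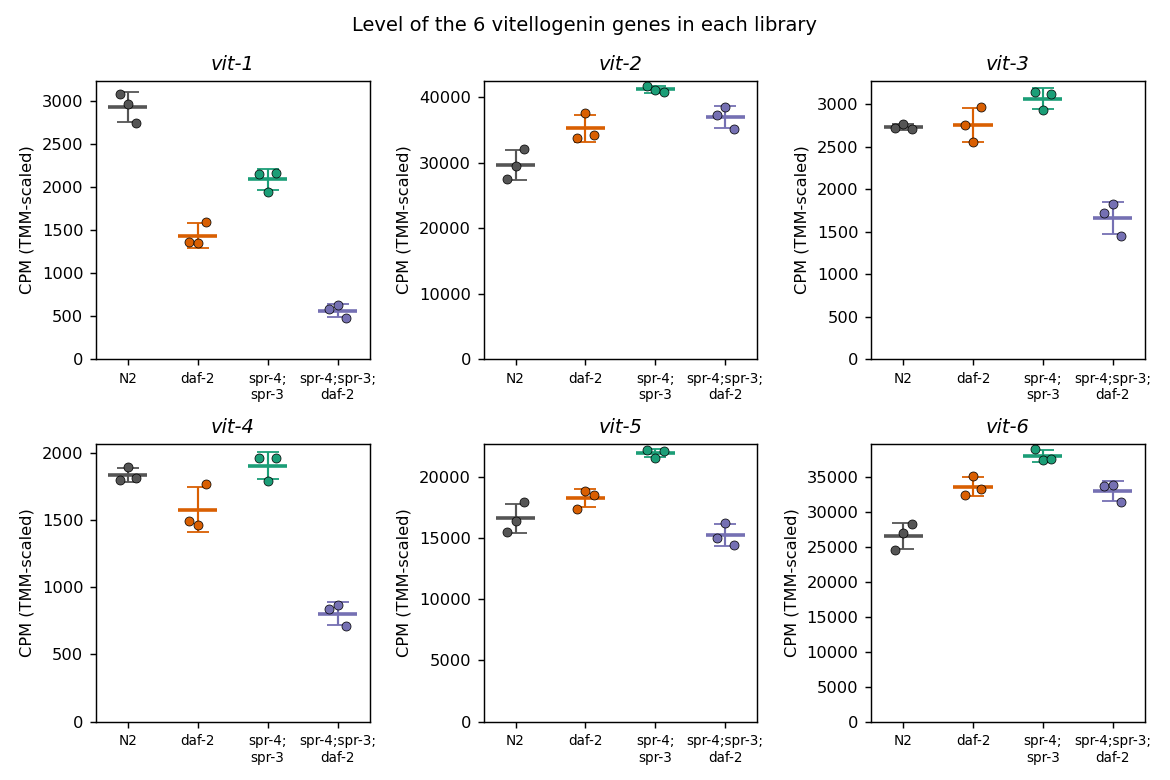
CPM after TMM scaling (y axis, each panel from 0) in each library of the 4 genotypes (x axis), 1 panel per gene; points are libraries, thick bars the mean and thin bars the SD (n = 3). vit-1 falls from 2738 to 3074 CPM in N2 to 475 to 626 in the triple-label libraries, while vit-2 and vit-6 are lowest in N2 and highest in spr-4;spr-3.

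The comparison of daf-2 with N2 addresses the receptor mutation with both spr genes intact. The abundant vit-6 and vit-2 rose modestly and vit-1 fell to 49.0% ± 4.84 of its N2 mean (SD, n = 3) in daf-2, so the family did not move one way. The log2 fold change was 0.34 ± 0.064 SE for vit-6 (edgeR's quasi-likelihood test, adjusted p = 0.00013), 0.25 ± 0.067 for vit-2 (0.0036) and -1.03 ± 0.095 for vit-1 (6.8e-07). vit-4 fell by 0.22 (edgeR adjusted p = 0.021), a call that was lost without daf-2 replicate 1 (-0.17, 0.19) or 2 (-0.15, 0.15) and without N2 replicate 2 (-0.18, 0.099) or 3 (-0.21, 0.055). vit-5 had 0.14 (edgeR adjusted p = 0.075) and passed without daf-2 replicate 1 (0.18, 0.0094) or N2 replicate 3 (0.21, 0.015), and also with limma-voom (0.033) and without the filter (0.0053). vit-3 had 0.01 (edgeR adjusted p = 0.90). In all 2 members rose and 2 fell, against 54.3% of all genes tested that were called, 27.4% higher and 26.9% lower. Tested against a 1.5-fold change, vit-1 alone of the 6 passed, beside 17.8% of all genes tested.

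Setting the triple-label libraries against daf-2 addresses the spr label in daf-2 animals. vit-1, vit-4 and vit-3 fell and vit-5 fell less, while vit-2 and vit-6, which lead the counts, were not called. The log2 fold changes were -1.35 ± 0.096 SE for vit-1 (edgeR adjusted p = 1.5e-07), -0.97 ± 0.077 for vit-4 (3.6e-08), -0.73 ± 0.069 for vit-3 (7.6e-08) and -0.26 ± 0.064 for vit-5 (0.0023). vit-2 had 0.07 (edgeR adjusted p = 0.41) and vit-6 had -0.03 (0.77). Of 6 members 0 rose and 4 fell, beside 47.0% of all genes tested that were called, 26.1% higher and 20.9% lower. Against a 1.5-fold change vit-1 and vit-4 passed, beside 7.71% of all genes tested, and vit-3 was just outside the threshold (edgeR glmTreat adjusted p = 0.071).

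The comparison of spr-4;spr-3 with N2 addresses the spr mutations with daf-2 intact. The 3 abundant genes rose together, vit-6 by 0.51 ± 0.065, vit-2 by 0.47 ± 0.067 and vit-5 by 0.40 ± 0.064 on the log2 scale (edgeR adjusted p = 1.6e-06, 8.1e-06 and 2.9e-05), and vit-1 fell by 0.49 ± 0.095 (0.00090). vit-4 had 0.05 (edgeR adjusted p = 0.60). vit-3 had 0.17 (edgeR adjusted p = 0.055) and passed without spr-4;spr-3 replicate 2 (0.20, 0.048), without triple-label replicate 2 (0.17, 0.039) or 3 (0.17, 0.019), with limma-voom (0.049), in a fit of only the groups compared (0.00055) and without the filter (0.0033). Thus 3 members were called higher and 1 lower, beside 46.5% of all genes tested that were called, 24.6% higher and 21.9% lower. No fitted difference reached 1.5-fold, and 0 of the 6 members passed the test against it, beside 7.20% of all genes tested.

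The daf-2 label on top of the spr label compares the triple-label libraries with spr-4;spr-3. Here the members that were called all fell: vit-1 by 1.89 ± 0.098, vit-4 by 1.24 ± 0.077, vit-3 by 0.88 ± 0.069, vit-5 by 0.53 ± 0.064 and vit-6 by 0.20 ± 0.064 on the log2 scale (edgeR adjusted p = 2.8e-09, 8.1e-10, 2.5e-09, 7.1e-07 and 0.013). The call of vit-6 was lost without triple-label replicate 3 (-0.17, edgeR adjusted p = 0.069) and without spr-4;spr-3 replicate 1 (-0.17, 0.086) or 3 (-0.20, 0.053). vit-2 had -0.16 (edgeR adjusted p = 0.060). It passed without daf-2 replicate 1 (-0.14, 0.032) or 3 (-0.14, 0.039), with RLE factors (0.042), DESeq2 (0.0064), limma-voom (0.024), only the groups compared (0.0019) and no filter (0.00088). The count was 0 higher and 5 lower of 6, beside 49.3% of all genes tested that were called, 25.8% higher and 23.5% lower. vit-1, vit-3 and vit-4 passed against a 1.5-fold change, beside 9.80% of all genes tested.

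Against N2, the triple-label libraries combine both labels. vit-1 was at 19.2% ± 2.66 of its N2 mean, vit-4 at 43.8% ± 4.62 and vit-3 at 60.8% ± 7.02, while vit-2 was at 125% ± 5.57 and vit-6 at 124% ± 5.20 (SD, n = 3). The log2 fold changes were -2.38 ± 0.099, -1.19 ± 0.077 and -0.72 ± 0.069 for the first 3 and 0.32 ± 0.067 and 0.31 ± 0.064 for the last (edgeR adjusted p = 8.1e-11, 3.9e-10, 1.6e-08, 0.00028 and 0.00022). vit-5 had -0.12 (edgeR adjusted p = 0.093), and it passed without N2 replicate 1 (-0.17, 0.039), triple-label replicate 2 (-0.17, 0.043) or daf-2 replicate 1 (-0.11, 0.049). It also passed with RLE factors (0.038), library totals (0.026), DESeq2 (0.0081), limma-voom (0.046) and no filter (0.0032). With 2 members higher and 3 lower, the background was 68.7% of all genes tested called, 35.4% higher and 33.3% lower. Against a 1.5-fold change vit-1, vit-3 and vit-4 passed, beside 24.3% of all genes tested.

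The interaction asks whether the daf-2 difference was the same with and without the spr label. For all 6 members it was more negative with the label, by 0.40 ± 0.095 for vit-2 to 1.02 ± 0.11 for vit-4 on the log2 scale. The interaction of vit-2 was -0.40 (edgeR adjusted p = 0.0031), of vit-6 -0.54 ± 0.091 (0.00015), of vit-5 -0.66 ± 0.091 (1.4e-05), of vit-1 -0.86 ± 0.13 (0.00039), of vit-3 -0.90 ± 0.098 (1.4e-06) and of vit-4 -1.02 (3.0e-06). vit-2 and vit-6 were higher in daf-2 than in N2 and lower, or not called, in the triple-label libraries than in spr-4;spr-3; vit-1 was lower in both settings and by more with the label. Of all genes tested 28.7% were called, 14.6% in this direction and 14.1% in the other. With library totals as the scaling, all 6 stayed lower and called, at -0.28 for vit-2 to -0.90 for vit-4. vit-3 and vit-4 passed against a 1.5-fold change, beside 6.15% of all genes tested. The pairwise comparisons share libraries with each other and with the interaction, so their values are not independent. The median log2 fold change of the 6 members was 0.07 in daf-2 against N2, -0.50 in the triple-label libraries against daf-2, 0.28 in spr-4;spr-3 against N2, -0.71 in the triple-label libraries against spr-4;spr-3, -0.42 against N2 and -0.76 in the interaction. For all genes tested the same medians lay between -0.0015 and 0.020.

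**Figure D3:**
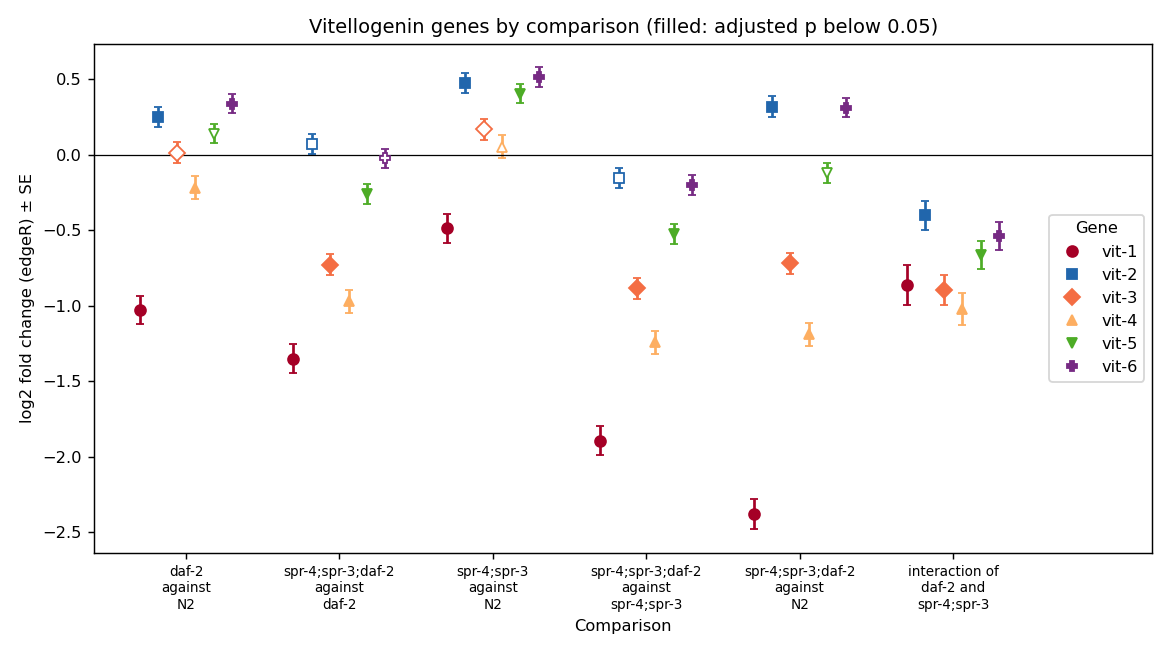
edgeR log2 fold change with its SE (y axis) of each vitellogenin gene (colour and shape) in 5 pairwise comparisons and the interaction (x axis); filled symbols have an adjusted p below 0.05. vit-1 is lowest in the 5 pairwise comparisons, down to -2.38, and the 6 interaction terms lie between -1.02 and -0.40.

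The make-up of the family shifted along with these changes. vit-1 made up 3.66% ± 0.446 of the vitellogenin counts in N2, 1.55% ± 0.169 in daf-2, 1.93% ± 0.0970 in spr-4;spr-3 and 0.635% ± 0.0594 in the triple-label libraries (SD, n = 3). vit-2 went from 36.9% ± 0.537 in N2 to 41.9% ± 0.135 in the triple-label libraries, and vit-5 from 20.6% ± 0.271 to 17.3% ± 0.412. Counts of vit-2 over those of vit-1 rose from 10.2 ± 1.42 in N2 to 19.8 ± 1.19 in spr-4;spr-3, 24.8 ± 3.20 in daf-2 and 66.5 ± 6.72 in the triple-label libraries, with no overlap between genotypes. The count ratio of the neighbours vit-3 and vit-4 shifted too. Ratios within a class, that of vit-2 to vit-1 included, are uncertain because close copies may exchange reads. vit-3 had 1.49 ± 0.0248 times the counts of vit-4 in N2, 1.61 ± 0.0220 in spr-4;spr-3, 1.75 ± 0.0830 in daf-2 and 2.06 ± 0.0246 in the triple-label libraries. The ratio of vit-6 to vit-2 counts was 0.895 ± 0.0163 in N2, 0.921 ± 0.0113 in spr-4;spr-3, 0.953 ± 0.0197 in daf-2 and 0.891 ± 0.0123 in the triple-label libraries, which overlapped N2. The ratio of vit-5 to vit-2 counts was 0.559 ± 0.00437 in N2, 0.532 ± 0.00815 in spr-4;spr-3, 0.518 ± 0.0197 in daf-2 and 0.411 ± 0.00968 in the triple-label libraries. Over 20 comparisons of these 4 ratios in 5 pairs of genotypes, an exact two-sided permutation test gave p = 0.1 in 18. The smallest Benjamini-Hochberg adjusted value was 0.111. With 3 against 3 libraries p cannot be below 0.1, so this test could call no ratio, whatever the values.

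**Figure D4:**
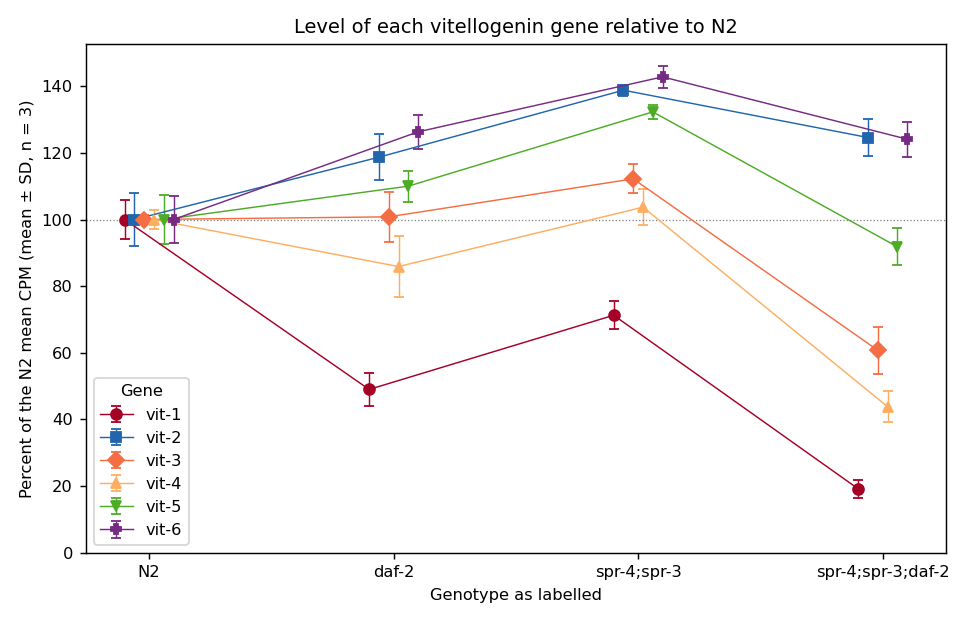
Mean level of each vitellogenin gene as a percent of its N2 mean CPM (y axis, from 0) in each genotype (x axis), with SD bars (n = 3); the lines only join the points of a gene. Members spread from 19.2% for vit-1 to 125% for vit-2 in the triple-label libraries, and from 71.3% to 143% in spr-4;spr-3.

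2 sets of members varied alike across the 12 libraries. Pearson's r of log2 CPM was 0.976 between vit-2 and vit-6, 0.981 between vit-3 and vit-4 and 0.957 between vit-1 and vit-4. It was -0.352 between vit-1 and vit-2 and -0.140 between vit-2 and vit-4, and vit-5 lay between, at 0.613 with vit-2 and 0.764 with vit-3. In the deviations of replicates from their genotype's mean, vit-5 went with vit-2 and vit-6: r was 0.954 for vit-2 with vit-6, 0.899 for vit-2 with vit-5, 0.879 for vit-5 with vit-6, 0.406 for vit-3 with vit-5, 0.945 for vit-3 with vit-4, 0.928 for vit-1 with vit-4 and -0.013 for vit-1 with vit-2. These values describe 12 libraries that share their scaling, and members of a class, such as vit-3 and vit-4, may share reads.

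Among 6673 named genes with a mean log2 CPM of at least 1, the 3 most like each member by Pearson's r over the 12 libraries were as follows. For vit-1 they were spn-4, cyb-2.2 and cpr-5 (r of 0.996, 0.993 and 0.993), and for vit-4 pos-1, bir-1 and ilys-5 (0.986, 0.985 and 0.983). vit-3 was closest to bir-1, vit-4 and pfkb-1.1 (0.983, 0.981 and 0.971). vit-2 was closest to oac-32, vit-6 and sea-2 (0.977, 0.976 and 0.973), and vit-6 to gpx-5, vit-2 and oac-32 (0.982, 0.976 and 0.969). vit-5 had the weakest likeness, with bath-40, erg-28 and mcu-1 (0.934, 0.932 and 0.932). The 12 libraries are 4 genotypes with 3 replicates each, so a high r here can rest on the 4 genotype means alone. Likeness within genotypes was not taken for genes outside the family. Likeness in pattern was not likeness in size: spn-4 had 803 ± 12.6 CPM in N2 and 532 ± 14.5 in the triple-label libraries, whereas cpr-5 had 132 ± 17.3 and 3.73 ± 0.153 (SD, n = 3). For the sum of the 6 genes the closest were pqn-96, wht-2 and vit-6 (0.948, 0.945 and 0.945), and the most opposed ttc-37, pcyt-1 and vps-34 (-0.939, -0.917 and -0.917).

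The 12 genes listed as regulators of yolk production were all tested. In daf-2 against N2, 3 rose and 4 fell, with a median log2 fold change of -0.11 (all genes tested: -0.0015). Of all genes tested, 27.4% were called higher and 26.9% lower there, near the shares of this list. pqm-1, a zinc-finger factor of the intestine, rose from 26.8 ± 1.45 to 51.0 ± 2.42 CPM (0.93), elt-7, an intestinal GATA factor, rose by 0.61, and unc-62, a homeodomain protein needed for yolk gene expression, fell by 0.19; elt-2, the main intestinal GATA factor, had -0.10 (edgeR adjusted p = 0.27). lin-29 had the largest fall of the list in daf-2 against N2, by 0.55, while sgk-1 fell by 0.22 and skn-1 rose by 0.10. In the triple-label libraries against daf-2, 4 rose and 2 fell (median -0.016, all genes 0.019), beside 26.1% of all genes tested called higher and 20.9% lower. ceh-60, the PBX-type partner of UNC-62 at the yolk genes, fell by 0.43 and unc-62 by 0.30. mab-3, which represses yolk genes in males, rose by 1.73 from a level of only 0.501 ± 0.174 CPM in daf-2. The others that rose were lrp-2, of the LDL receptor family, by 0.97, lin-29 by 0.43 and pqm-1 by 0.19. In spr-4;spr-3 against N2, 4 rose and 1 fell (median 0.14, all genes 0.018), beside 24.6% of all genes tested called higher and 21.9% lower. lrp-2 rose from 53.5 ± 1.84 to 118 ± 1.05 CPM (1.14). The regulator count was 3 and 0 without N2 replicate 1, spr-4;spr-3 replicate 1 or spr-4;spr-3 replicate 2. daf-16, the factor held back by insulin signalling, fell by 0.17 in daf-2 and by 0.12 in spr-4;spr-3 from an N2 level of 150 ± 3.04 CPM. The triple-label libraries had 3 regulators higher and 6 lower than spr-4;spr-3 (median -0.15, all genes 0.0078), beside 25.8% of all genes tested called higher and 23.5% lower. The largest falls there were of sgk-1 by 0.42, ceh-60 by 0.39 and unc-62 by 0.35, while mab-3, pqm-1 and elt-7 rose by 0.83, 0.69 and 0.48. Against N2 they had 5 higher and 5 lower, beside 35.4% and 33.3%. In the interaction 1 regulator was higher and 1 lower (median -0.15, all genes 0.0055), beside 14.1% of all genes tested called higher and 14.6% lower. These were mab-3 at 1.12 and rict-1, of the TORC2 kinase complex, at -0.21. The call of mab-3 was lost with DESeq2, limma-voom or a filter of 1 CPM in 6 libraries and without triple-label replicate 1, N2 replicate 1 or 2, or spr-4;spr-3 replicate 2 or 3, which left 1 regulator called.

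Of 5 genes of yolk secretion and lipid loading, 0 rose and 2 fell in daf-2 against N2 (median -0.09, all genes -0.0015): sft-4, a cargo receptor for export from the endoplasmic reticulum, by 0.31 and sar-1, a GTPase of the same export step, by 0.17. Without daf-2 replicate 1, 1 of them was called. In the triple-label libraries against daf-2, 1 rose and 3 fell (median -0.12, all genes 0.019), with dsc-4, of the lipid transfer protein that loads lipoproteins, up by 0.17; without daf-2 replicate 2, 0 rose and 2 fell, and with library totals 1 rose and 1 fell. Of 10 genes of yolk uptake and endocytosis, 1 rose and 3 fell in daf-2 against N2 (median 0.0075), and 0 rose and 4 fell in the triple-label libraries against daf-2 (median -0.08). Beside both lists, 27.4% of all genes tested were called higher and 26.9% lower in daf-2 against N2. The shares were 26.1% higher and 20.9% lower in the triple-label libraries against daf-2. rme-2, the yolk receptor of the oocyte, went from 710 ± 29.5 CPM in N2 to 613 ± 4.25 in spr-4;spr-3, 578 ± 10.5 in daf-2 and 401 ± 21.7 in the triple-label libraries (SD, n = 3). It fell in each of the 5 pairwise comparisons, by 0.21 in spr-4;spr-3 against N2, 0.30 in daf-2 against N2, 0.53 in the triple-label libraries against daf-2, 0.61 against spr-4;spr-3 and 0.83 against N2. rab-7, a late endosome GTPase, rose by 0.70 in daf-2 and fell by 0.70 from daf-2 to the triple-label libraries. Its interaction was -0.67 and that of rme-2 -0.32 (edgeR adjusted p = 1.0e-08 and 0.00093), among 3 uptake genes lower and 1 higher. Of all genes tested, 14.6% were called lower and 14.1% higher in the interaction.

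**Figure D5:**
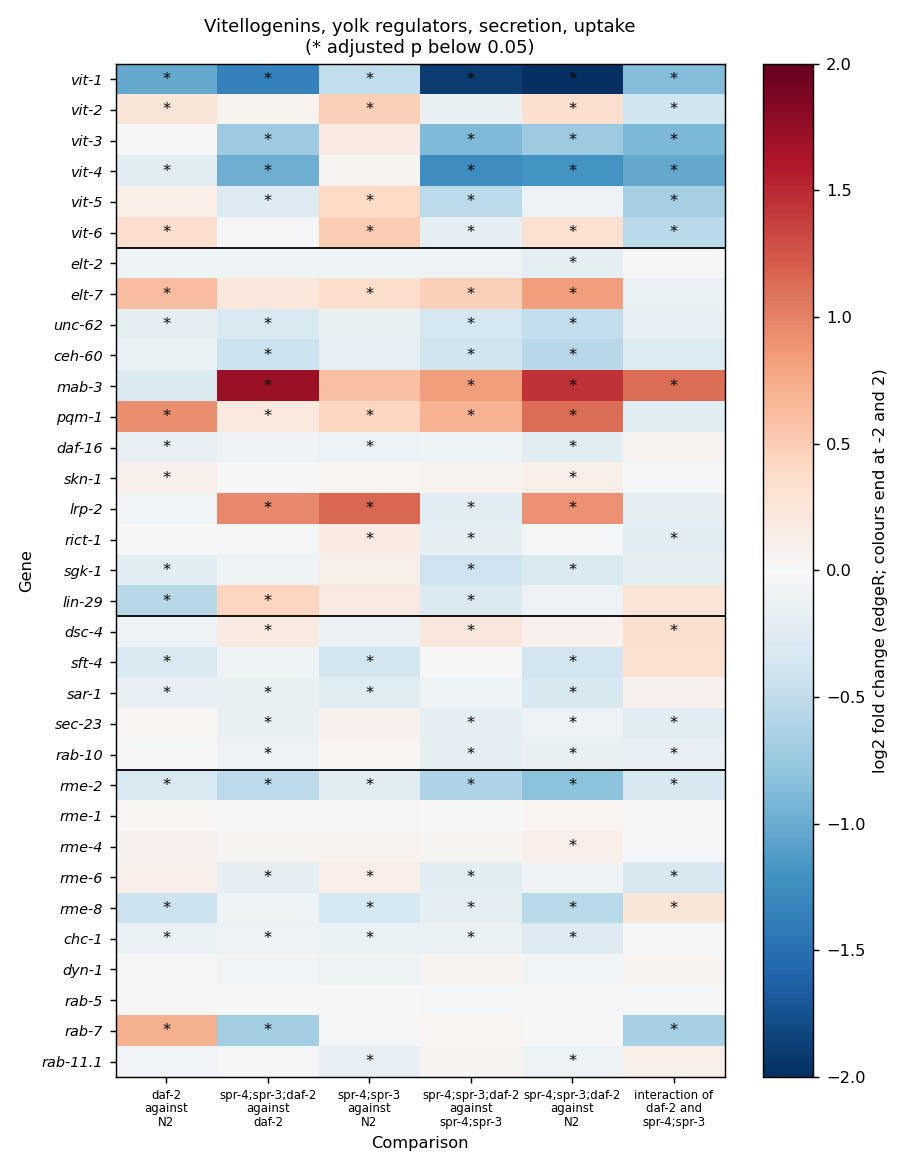
edgeR log2 fold change (colour, ending at -2 and 2) of the 6 vitellogenins and of the yolk regulator, secretion and uptake genes (rows, separated by lines) in each comparison (columns); a star marks an adjusted p below 0.05. rme-2 is lower in every pairwise comparison, vit-2 and vit-6 are higher than N2 in every mutant group, and lrp-2 is higher in both groups with the spr label when set against N2 or daf-2.

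Markers of the tissues that make and take up yolk were read in the same libraries, and their part in the vitellogenin differences was not tested. In whole animals, fewer cells of a type and less RNA per cell cannot be told apart. The 8 intestine markers, none of them at 0, summed to 820 to 885 CPM in N2, 594 to 647 in daf-2, 674 to 711 in spr-4;spr-3 and 553 to 652 in the triple-label libraries; in daf-2 against N2, 5 fell and 2 rose (median -0.44, all genes -0.0015), beside 26.9% of all genes tested called lower and 27.4% higher, with the peptide transporter pept-1 at -2.17 and the gut esterase ges-1 at 1.24. In each mutant group the summed intestine markers lay below N2, but the largest parts of the sum were act-5 (381 CPM in N2) and vha-6 (217). ges-1 went the other way, from 22.6 CPM in N2 to 53.6 in daf-2 and 44.35 in the triple-label libraries. In spr-4;spr-3 against N2, 5 of the 8 fell and 1 rose, beside 21.9% of all genes tested called lower and 24.6% higher. In the triple-label libraries against N2, 6 of the 8 fell and 2 rose, beside 33.3% called lower and 35.4% higher. The 11 oocyte and eggshell markers summed to 8048 to 8193 CPM in N2, 7878 to 8465 in daf-2, 8682 to 9017 in spr-4;spr-3 and 6778 to 7133 in the triple-label libraries. The higher sum in spr-4;spr-3 was not shared by most of them. Against N2, 3 rose and 5 fell there (median -0.030, all genes 0.018), beside 24.6% of all genes tested called higher and 21.9% lower. Among those that rose were perm-4, from 1700 to 2394 CPM, and perm-2, from 1116 to 1523. In daf-2 against N2, 3 of the 11 rose and 4 fell, beside 27.4% called higher and 26.9% lower. In the triple-label libraries against daf-2, 9 of these 11 fell and 0 rose (median -0.32, all genes 0.019), beside 20.9% of all genes tested called lower. In the interaction 10 of 11 were called lower (median -0.32, all genes 0.0055), beside 14.6% of all genes tested; with library totals it was 6 of 11, beside 1054 of 15764 genes. The 12 sperm markers summed to 78.3 to 111 CPM in N2, 5.38 to 8.69 in daf-2, 38.6 to 48.8 in spr-4;spr-3 and 20.8 to 28.2 in the triple-label libraries. No vitellogenin gene shared the order of this sum. In daf-2 against N2, 11 of the 12 fell and 0 rose, beside 26.9% of all genes tested called lower. In spr-4;spr-3 against N2, 10 fell and 1 rose, beside 21.9% called lower and 24.6% higher. The marker that rose was smz-1, from 3.17 ± 0.583 to 8.09 ± 0.705 CPM (SD, n = 3).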

How the data were processed

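The authors deposited raw read counts as whole numbers for each gene, with no scaling; per the submitters' processing notes, the authors used STAR, featureCounts 1.5.1 and WBcel235. Neither the strand setting nor the handling of multiply matching reads was given in the sources used here. The 12 columns were matched to samples by name. Names and exon lengths came from Ensembl's WBcel235 annotation and a gene name table holding 43720 of the 46739 identifiers; 46484 had a length. The members and lists were chosen with earlier results of these data known.

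The fit used edgeR 4.0.16 under R 4.3.3, with filterByExpr (minimum count 10) and TMM. A single robust quasi-likelihood fit took all 12 libraries, with 8 residual degrees of freedom. Tests were two-sided, with Benjamini-Hochberg adjustment over 15764 genes, and genes were called below 0.05. The code was also run on simulated data. Far fewer genes were changed there than were called here, so that run does not show how the fit behaves on these data. Log2 CPM used a prior count of 2. The SE is the absolute log2 fold change over the root of F. Replicates were never within counting error of each other: their chi-square over its degrees of freedom ran from 3.61 to 17.98. Named genes were the 6 members, any member of the lists given, and the 3 genes most like each member. Alternatives included DESeq2 1.42.0 and limma 3.58.1. Vitellogenin sequences were not used here, so no promoter motif was searched. Counting error applies to single libraries only.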

Additional observations from a re-analysis of the deposited data

Results flagged for a closer look

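For each vitellogenin gene, the difference between daf-2 and its control changed with the spr label by a test of the interaction (edgeR's quasi-likelihood test, n = 3 per genotype). The interaction was -0.86 for vit-1, -0.40 for vit-2, -0.90 for vit-3, -1.02 for vit-4, -0.66 for vit-5 and -0.54 for vit-6 on the log2 scale. Leaving aside the test against a 1.5-fold change, alternatives ran from -0.95 to -0.74 for vit-1, -0.46 to -0.28 for vit-2, -0.97 to -0.78 for vit-3, -1.08 to -0.90 for vit-4, -0.72 to -0.54 for vit-5 and -0.59 to -0.42 for vit-6. In the triple-label libraries spr-4 was near its level in spr-4;spr-3 (61.1 and 64.1 CPM, against 76.1 in N2 and 70.8 in daf-2), while spr-3 was not (16.4 and 9.22, against 17.3 and 17.5). The part of this in the interaction was not tested.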

How the results depend on the processing

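Of 750 recomputed fold changes of single members under alternatives other than the 1.5-fold test, 711 kept their direction and their side of the threshold, 25 passed where the reported fit did not, 7 no longer passed and 7 changed sign. The sign changes were of differences near 0 that were not called: vit-3 in daf-2 against N2 at -0.0056 with RLE factors and with DESeq2, -0.039 with library totals and, leaving out one replicate, between -0.026 without daf-2 replicate 3 and 0.085 without daf-2 replicate 2; vit-6 in the triple-label libraries against daf-2 at 0.0058 with library totals and, leaving out one replicate, between -0.056 without daf-2 replicate 1 and 0.0083 without triple-label replicate 3; and vit-4 in spr-4;spr-3 against N2 at -0.039 with library totals. The cause was not tested. Against a 1.5-fold change the number of members called was 1 in daf-2 against N2, 2 in the triple-label libraries against daf-2, 0 in spr-4;spr-3 against N2, 3 in the triple-label libraries against spr-4;spr-3, 3 against N2 and 2 in the interaction; this test asks for a larger change by construction. Over all genes it called 2810, 1216, 1135, 1545, 3835 and 970 in the same order, in place of 8560, 7410, 7324, 7777, 10829 and 4523.

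Libraries with one replicate number deviated together no more than others (median correlation of deviations 0.0069 over 18 pairs, 1 of them over 0.1). With the replicate block, 0 of 36 member results changed their call, and the vitellogenin genes called stayed at 4 in daf-2 against N2, the triple-label libraries against daf-2 and spr-4;spr-3 against N2.

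As a percent of the counts of other genes the family stood at 9.01 in N2, 10.15 in daf-2, 11.7 in spr-4;spr-3 and 9.82 in the triple-label libraries. As a percent of TPM it stood at 2.09, 2.24, 2.58 and 2.15. Leaving out one replicate moved the share of all counts within 8.02 to 8.52 in N2, 9.06 to 9.45 in daf-2, 10.4 to 10.5 in spr-4;spr-3 and 8.80 to 9.14 in the triple-label libraries. Per exon length, vit-5 made up 21.1% of the family in N2, 20.1% in daf-2 and 20.7% in spr-4;spr-3, vit-6 32.4%, 35.5%, 34.4% and 36.7% in N2, daf-2, spr-4;spr-3 and the triple-label libraries, and vit-2 42.3% in the last. With copies summed, vit-1 and vit-2 made up 40.6%, 39.5%, 40.03% and 42.6% in the same order, and vit-3, vit-4 and vit-5 26.3%, 24.3%, 24.9% and 20.04%.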
